A study of Homo sapiens with 42 samples.

Results

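Chemokines, chemokine receptors and interleukins were followed across 786-O cells in which the hypoxia-inducible factors (HIFs) had been tagged, overexpressed, mutated or recombined. The members were taken by name alone, as every gene entry whose symbol is CXCL, CCL, CXCR or CCR with a number, ACKR with a digit, IL with a number and at most 1 further letter, or CX3CL1. This gave 105 gene entries with 104 symbols out of 60609 entries in the count files, because IL9R is listed at more than 1 position. The rule also takes the interleukin receptors IL4R, IL6R, IL7R, IL9R, IL21R and IL23R, and leaves out receptor subunits with longer names. It used no measured value, but it was chosen with earlier results of these data known.

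786-O is a clear cell renal carcinoma line that lacks functional VHL, the ubiquitin ligase subunit that marks HIF-α for destruction, and lacks functional HIF-1α, so every group compared here shares both defects and its own HIF-2α. Poly-A RNA-seq was made in 2 batches with 3 libraries per group. Batch 1 held 27 libraries in 9 groups: WT cells, 2 knock-in lines, of HIF-1β (HIF-1β KIN) and of HIF-2α (HIF-2α KIN), and cells with a transgene for HIF-1α, HIF-1α R30E, HIF-1αDM, HIF-2α, HIF-2α R27E or HIF-2αDM. Batch 2 held 15 libraries in 5 groups: WT cells and lines given HIF-1α, HIF-2α or 1 of the chimeras HIF-2α/1α and HIF-1α/2α. In the KIN (knock-in) lines, each a single homozygous clone (A21 for HIF-1β and A31 for HIF-2α), a V5 epitope and a HaloTag were added to the N-terminus of the cell's own protein. The transgenes, also V5- and Halo-tagged, were integrated into WT cells as stable pools and driven by the L30 promoter. These lines were transfected with a PiggyBac vector and selected with puromycin, and no line with an empty vector was among the groups. In comparisons with WT cells, effects of the transgene and of transfection and selection therefore cannot be told apart. R30E and R27E are changes in the DNA-binding domain, and DM stands for R170A and V191D in HIF-1α or R171A and V192D in HIF-2α, in the dimerization surface. In the chimera HIF-2α/1α the folded part of the protein is that of HIF-2α and the intrinsically disordered region (IDR) that of HIF-1α, and the other chimera, HIF-1α/2α, is built the other way round. The genotype label of the HIF-2αDM libraries names HIF-1α while their title names HIF-2αDM, and they were grouped by title. The study's methods call the libraries of a group biological replicates, and the labels do not say whether they came from separate cultures, so that p-values measure only the spread between these libraries.

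As background, HIF-1α and HIF-2α bind DNA as dimers with HIF-1β, at a short core called the hypoxia response element, and switch on genes of oxygen supply, metabolism and cell movement. Chemokines are small secreted proteins that guide cells through G-protein-coupled receptors: those named CXCL act on CXCR receptors, those named CCL on CCR receptors, and the atypical receptor ACKR3 binds CXCL12, the ligand of CXCR4, and removes it without classical G-protein signalling. Interleukins signal between leukocytes and tissues, and many inflammatory chemokines and interleukins are targets of NF-κB. In clear cell renal carcinoma, loss of VHL is known for raised CXCR4 and for secretion of CXCL8 and IL6.

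The libraries held 42377599 to 101186554 gene reads in batch 1 and 76366799 to 109642159 in batch 2. In batch 1 the library numbered 3 was the deepest of each group, with 72801922 to 101186554 reads. The members together took 0.08067% to 0.1561% of these reads in batch 1 and 0.09305% to 0.1379% in batch 2. A floor of 3 reads, taken as the smallest detectable value, lay between 0.0274 and 0.0708 CPM (reads scaled to depth), and it covers counting error only. HIF1A, to which reads of the HIF-1α transgene also count, had a mean of 242 normalized counts in WT cells and 3038 in the HIF-1α line of batch 1, and 293 and 13161 in batch 2. EPAS1, the gene of HIF-2α, rose from 14498 to 44695 with HIF-2α in batch 1 and from 12621 to 42541 in batch 2. With HIF-1α EPAS1 averaged 22951 and 16360 in batches 1 and 2, and with HIF-2α HIF1A averaged 910 and 936. In the chimera HIF-2α/1α HIF1A averaged 9625 and EPAS1 20745, and in HIF-1α/2α 9734 and 51430. The part of these levels in the results was not tested. The 7 kidney and carcinoma markers summed to at least 192515 normalized counts in every group. They were uneven: KRT8 averaged at least 73026 and PAX8 at least 19526 in any group. The lowest group mean of CA9 was 0.282 in batch 1 and 0 in batch 2, and that of NDUFA4L2 41.3 and 63.2. The leukocyte markers summed to at most 73.0 in any group, and PTPRC, which encodes CD45, averaged at most 5.03. Higher than PTPRC were ITGAM, with group means of up to 50.4, and CD14, with up to 31.3. RNA was measured in bulk, where fewer expressing cells and less RNA per cell cannot be told apart.

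Most members lay below the detection limit in these cells. A member was called detected where its mean raw count over the libraries of a batch was at least 10, which held for 30 of the 105 entries in batch 1 and 31 in batch 2, with 30 in both and CXCL10 in batch 2 alone. In batch 1 33 entries had no read in any library and 56 had at most 3 reads in every library, and in batch 2 32 and 47. Of the 6 ligands of CXCR2, which draw neutrophils, 5 were detected in each batch, while of 24 CC chemokines only 5 were, and of 16 chemokine receptors 2, CXCR4 and CCR10. None of the 6 members of the IL-10 and IL-20 family was detected, and IL18 alone of 8 members of the IL-1 family. Of 4 atypical receptors only ACKR3 was detected.

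IL32, an interleukin of epithelial and lymphoid cells with no sequence kinship to other families, was by far the most abundant. Per length of merged exon it had 338 ± 12.8 RPKM (reads per kilobase of exon, scaled to depth, SD, n = 3) in WT cells of batch 1 and 294 ± 7.59 in batch 2, and it held 42.35% to 78.84% of all member reads of a library in batch 1. CXCL5, a ligand of CXCR2, followed with 26.4 ± 3.14 and 58.0 ± 6.39 RPKM. IL4R, the receptor chain for IL-4 and IL-13, had 18.4 ± 0.33 and 9.63 ± 0.25. CXCL1 had 9.81 ± 2.21 RPKM, CXCL8 8.80 ± 0.85 and IL11 7.70 ± 1.75 in batch 1, neighbours in this order that did not differ beyond their SDs, and CXCL8 stood at 31.7 ± 4.19 RPKM in batch 2. At the low end in WT cells were CCL26 with 0.0383 ± 0.0489 RPKM, CXCL12 with 0.0520 ± 0.0073 and CXCR4 with 0.0869 ± 0.0139, all 3 in batch 1. The chemokine receptor CXCR4 thus lay far below ACKR3, at 5.43 ± 1.67 RPKM in the same libraries.

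Promoter sequences show 2 kinds of short match near the members' starts. They came from RefSeq on GRCh38.p14, the build of the counts being hg38, and covered 250 bases before to 50 bases after a start, 300 in all. At least 1 promoter was listed for 21 of the 31 detected members, 28 promoters together. The core of the hypoxia response element was searched as ACGTG or GCGTG on both strands, and the NF-κB site by its κB consensus of 10 letters. The core was in 10 of the 28 member promoters, or 35.7%, against 48.4% of all 35116 promoters of that length. The κB consensus was in 12 of the 28, or 42.9%, against 11.3% of all. A match is a description of the letters and not a bound site. The promoters of 4 members whose values are given below are shown because they hold one or both motifs, with matched letters in capitals and 5′ to 3′ along the gene's strand.
CXCR4, chr2:136118100-136118399 (- strand): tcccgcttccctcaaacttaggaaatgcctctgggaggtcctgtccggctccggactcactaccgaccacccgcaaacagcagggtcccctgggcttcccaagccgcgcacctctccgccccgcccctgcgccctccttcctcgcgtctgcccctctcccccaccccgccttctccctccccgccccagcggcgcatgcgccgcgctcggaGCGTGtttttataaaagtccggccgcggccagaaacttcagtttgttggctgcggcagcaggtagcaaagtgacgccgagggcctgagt
CCL20, chr2:227813592-227813891 (+ strand): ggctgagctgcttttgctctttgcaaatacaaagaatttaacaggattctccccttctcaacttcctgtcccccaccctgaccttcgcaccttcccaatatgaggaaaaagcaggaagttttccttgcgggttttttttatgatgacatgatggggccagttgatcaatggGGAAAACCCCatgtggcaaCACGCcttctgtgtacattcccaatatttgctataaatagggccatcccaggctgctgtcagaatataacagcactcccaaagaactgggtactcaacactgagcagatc
CXCL1, chr4:73869143-73869442 (+ strand): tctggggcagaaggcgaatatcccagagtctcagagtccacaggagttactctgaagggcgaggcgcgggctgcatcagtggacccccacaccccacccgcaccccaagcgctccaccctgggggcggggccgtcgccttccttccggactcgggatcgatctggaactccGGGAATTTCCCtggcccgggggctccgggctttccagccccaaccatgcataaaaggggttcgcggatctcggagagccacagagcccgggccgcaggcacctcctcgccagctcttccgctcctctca
CXCL5, chr4:73998628-73998927 (- strand): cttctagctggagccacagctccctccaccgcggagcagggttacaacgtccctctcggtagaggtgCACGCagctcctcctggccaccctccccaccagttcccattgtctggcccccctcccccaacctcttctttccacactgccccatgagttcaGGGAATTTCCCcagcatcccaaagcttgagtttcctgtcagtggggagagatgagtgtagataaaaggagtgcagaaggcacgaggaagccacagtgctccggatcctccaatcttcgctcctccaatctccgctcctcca
The first of 3 listed CXCR4 promoters holds a core 39 bases before the start. The CCL20 promoter holds a κB match 79 bases and a core 60 bases before the start. In CXCL1 the capitals cover a pair of overlapping κB matches, one on each strand, at 79 and 78 bases before the start, and CXCL5 has such a pair at 91 and 90 bases and a core at 183. CXCL2 (78 and 77) and CXCL3 (79 and 78), also on chromosome 4, carry the same kind of match at nearly the same distance.

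Every comparison was made within a batch. A gene was called at an adjusted p of at most 0.01 (quasi-likelihood test of edgeR, adjusted by Benjamini-Hochberg over all genes tested) and at least a 2-fold change, and SEs are of the log2 difference. Of the members, 47 entries passed the filter on low counts in batch 1 and 55 in batch 2, 30 and 31 of them detected, and a member can pass it through 1 group in which it is high. In batch 1 7 of the 47 (14.9%) were called with HIF-1α, 3 higher and 4 lower, where 3.79% of all genes tested were called, 3.27% higher and 0.517% lower. With HIF-2α 9 (19.1%) were called, 4 higher and 5 lower, against 5.72% of all genes (3.78% and 1.94%). In batch 2 10 of 55 (18.2%) were called with HIF-1α, 6 higher and 4 lower, against 4.39% (3.9% and 0.484%), and 12 (21.8%) with HIF-2α, 6 each way, against 7.58% (5.45% and 2.13%). The chimera HIF-2α/1α had 8 (14.5%), 4 each way, against 3.49% (2.98% and 0.508%), and HIF-1α/2α had 12 (21.8%), 7 higher and 5 lower, against 7.78% (5.1% and 2.68%). In these parentheses the share of all genes called higher is given first and that called lower second.

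The mutant lines ranged from 0 to 6 called members. With HIF-1α R30E 6 members (12.8%) were called, 3 each way, against 2.61% of all genes (2.04% higher and 0.572% lower), and with HIF-2α R27E 1 member, CXCL12, was higher, or 2.13% against 0.496% (0.449% and 0.047%). With HIF-1αDM and HIF-2αDM no member was called, where 0.457% and 0.474% of all genes were. In these DM comparisons 10 and 11 of the 47 members had an unadjusted edgeR p under 0.05, and DESeq2 called 0 in each. The HIF-2α KIN clone had the most in batch 1, 12 members (25.5%), 1 higher and 11 lower, against 4.14% (2.35% and 1.79%), and HIF-1β KIN had 1 lower, CXCL1, or 2.13% against 1.38% (0.393% and 0.982%). With a block for the replicate number, which suits batch 1 (same-numbered libraries deviate together), the counts rose to 4 for HIF-1β KIN, 11 for HIF-1α and 2 for HIF-2α R27E.

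**Figure D1:**
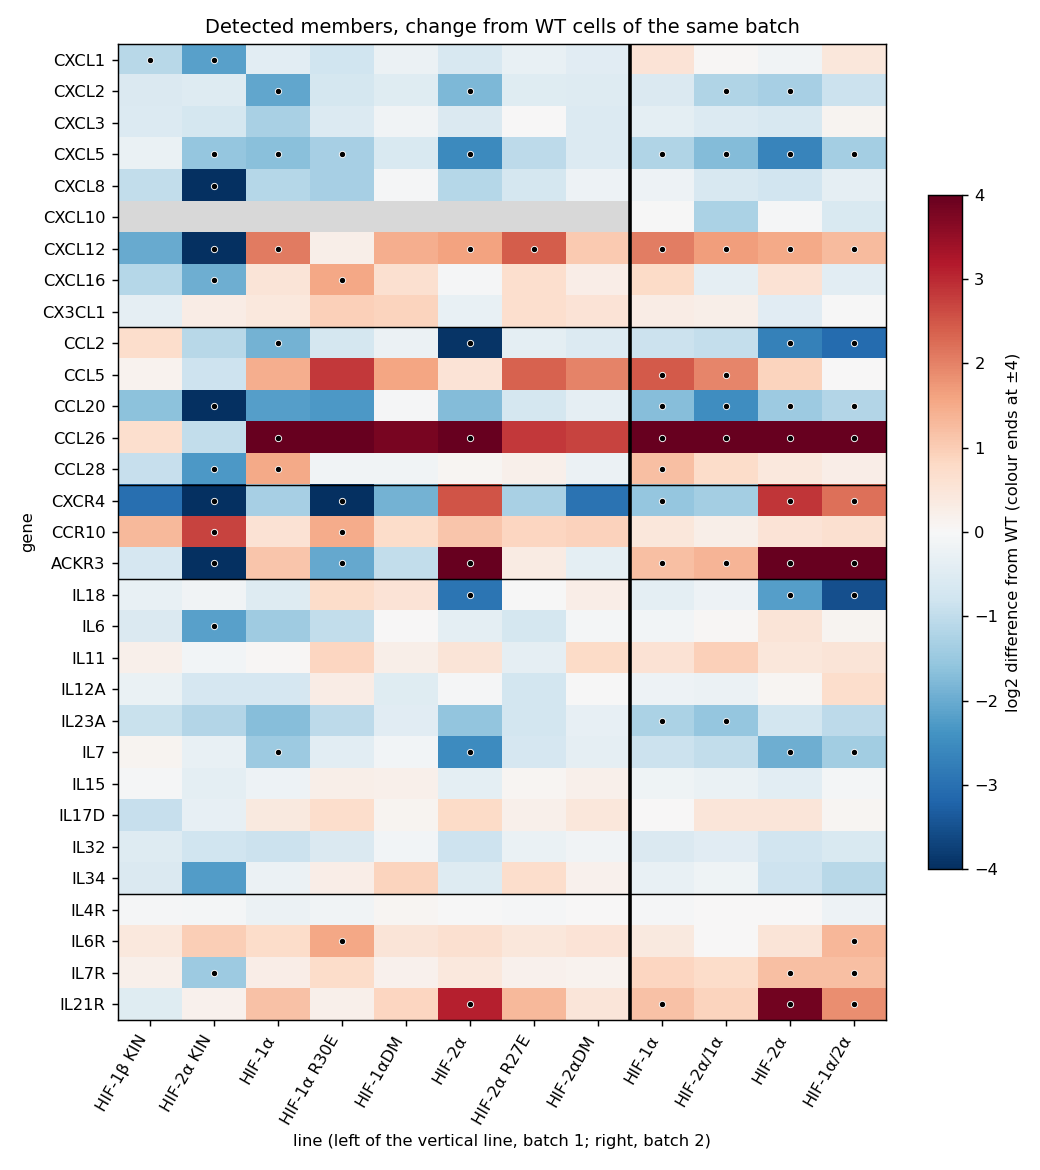
Heat map of the log2 difference from WT cells of the same batch for the 31 detected members (rows, grouped as CXC and CX3C chemokines, CC chemokines, receptors, interleukins and interleukin receptors) in 12 comparisons (columns, batch 1 left of the vertical line). Black dots mark called differences and the colour scale ends at ±4. CCL26 and CXCL12 are red and CXCL5 is blue in all 6 columns of the functional lines and chimeras, and the HIF-2α KIN column is mostly blue.

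Over the 6 comparisons of HIF-1α, HIF-2α or a chimera with WT cells, 3 members were called each time: CCL26 and CXCL12 higher and CXCL5 lower. These comparisons share their WT libraries within a batch and are not independent. ACKR3 was called higher in 5 and IL21R in 4, while CCL2, CCL20, CXCL2 and IL7 were each called lower in 4. The changes ran both ways: the median of the detected members was -0.24 with HIF-1α and -0.18 with HIF-2α in batch 1, beside -0.03 and -0.09 over all genes tested, and -0.06 and 0.01 in batch 2, beside 0.03 and 0.07. The detected members never called in the main edgeR fits of the 23 comparisons were 10, CX3CL1, CXCL3, CXCL10, IL4R, IL11, IL12A, IL15, IL17D, IL32 and IL34. IL32 differed from WT by log2 -0.86 to -0.46 in these 6 comparisons, in none by 2-fold.

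With HIF-2α the receptor that moved furthest from WT was ACKR3, the scavenger of CXCL12 (chromosome 2, 236567787 to 236582354, plus strand). In batch 1 its normalized counts were 917, 735 and 546 in WT cells, 2151, 1472 and 1118 with HIF-1α, and 38059, 25236 and 20173 with HIF-2α. All HIF-2α libraries lay far above all others of the batch. The log2 difference from WT was 5.25 ± 0.34 (SE, adjusted p = 1.51e-11) with HIF-2α and 1.11 ± 0.29 (adjusted p = 0.0136) with HIF-1α, which was not called, although the 3 HIF-1α libraries lay above the 3 WT ones. With the replicate block the HIF-1α value was 1.10, adjusted p = 4.44e-06, and called.

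ACKR3 behaved alike in batch 2. WT cells had 823, 778 and 741 normalized counts, HIF-1α 1852, 1928 and 1652, HIF-2α/1α 2240, 2034 and 1780, HIF-2α 34050, 32764 and 31570, and HIF-1α/2α 21462, 22499 and 20624. The libraries thus fell in 3 separate levels: WT, the lines with the HIF-1α IDR, and the lines with the HIF-2α IDR. Log2 differences from WT were 1.21 ± 0.07 with HIF-1α, 1.37 ± 0.07 with the chimera HIF-2α/1α, 4.78 ± 0.07 with HIF-1α/2α and 5.39 ± 0.08 with HIF-2α, all called. With HIF-1α R30E in batch 1, in contrast, ACKR3 fell below WT, to 158, 242 and 136 (log2 -2.04 ± 0.30, adjusted p = 5.07e-05). HIF-1αDM (382, 407 and 330) and HIF-1β KIN (508, 539 and 346) also lay below every WT library of that batch, without a call. The HIF-2α KIN clone, given further on, was lower still.

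CXCR4, the signalling receptor for CXCL12 (chromosome 2, 136114349 to 136119177, minus strand, with its promoter the first shown above), was near the floor in WT cells and rose with HIF-2α. In batch 1 WT cells had 16.5, 18.4 and 14.8 normalized counts and HIF-2α 147, 85.7 and 55.3. The groups did not overlap, but the log2 difference of 2.52 ± 0.73 was not called in the main edgeR fit (adjusted p = 0.0202). It was called with the replicate block (2.44, adjusted p = 0.00672), with DESeq2 (2.60, adjusted p = 0.00461) and in a fit of these groups alone (2.54, adjusted p = 0.000926). HIF-1α had 14.2, 4.16 and 0.911, all below every WT library. The same held for HIF-1αDM (5.98, 3.90 and 3.35), HIF-2αDM (1.16, 1.04 and 3.51) and HIF-1β KIN (1.08, 1.06 and 3.42), and none of these 4 differences was called.

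In batch 2 CXCR4 had 11.6, 42.0 and 31.1 normalized counts in WT cells, 218, 275 and 124 with HIF-2α and 138, 144 and 111 with HIF-1α/2α. Both were called, with log2 differences of 2.84 ± 0.36 and 2.19 ± 0.36, and every library of these lines lay above every other. With HIF-1α the counts were 4.82, 20.3 and 3.79 and with HIF-2α/1α 14.2, 13.8 and 4.44, and both overlapped WT. The HIF-1α difference, -1.56 ± 0.46 (adjusted p = 0.00882), was called by edgeR, but not by DESeq2 (adjusted p = 0.0547), nor without WT library 2 or 3 or HIF-1α library 1 or 3 (adjusted p = 0.0231 to 0.132). With the replicate block the HIF-2α/1α value, log2 -1.40, was also called (adjusted p = 0.0012).

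Other receptors moved less evenly. IL21R, the receptor of a T-cell cytokine (chromosome 16, 27402174 to 27452042), had 37.2, 46.4 and 37.9 normalized counts in WT cells of batch 1 and 360, 304 and 383 with HIF-2α, a log2 difference of 3.11 ± 0.40. In batch 2 it had 14.4, 11.3 and 34.1 in WT, 310, 308 and 237 with HIF-2α and 87.0, 70.2 and 53.2 with HIF-1α/2α, and both were called at 3.86 ± 0.31 and 1.84 ± 0.32. The HIF-2α libraries lay above all others in both batches. With HIF-1α in batch 2 it had 59.8, 30.0 and 41.7, which overlapped WT, and the call (1.16 ± 0.33, adjusted p = 0.00697) was lost without WT library 1 or 2 or HIF-1α library 1 or 3 (0.86 to 1.19, adjusted p = 0.0111 to 0.0932).

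IL7R, a receptor chain for IL-7, was called higher in batch 2 alone: 2311, 2466 and 1942 normalized counts in WT cells, 5077, 5014 and 5393 with HIF-2α (1.20 ± 0.07), and 5541, 5027 and 4960 with HIF-1α/2α (1.21 ± 0.07). In batch 1 WT had 508, 456 and 520 and HIF-2α 591, 845 and 542, a difference that was not called. IL6R, the receptor for IL-6, was called with HIF-1α/2α at 1.33 ± 0.17, from 169, 169 and 130 in WT to 400, 406 and 370. CCR10, the receptor for CCL28, was higher with HIF-2α in batch 1, with 93.2, 140 and 124 against 40.5, 57.1 and 68.2, but was not called in the main edgeR fit. It was called with the replicate block (1.13, adjusted p = 0.000729), with DESeq2 (1.17, adjusted p = 0.0015) and with RLE size factors (1.17, adjusted p = 0.00964). HIF-2α R27E (94.7, 84.8 and 124), HIF-2αDM (103, 95.9 and 116) and HIF-1αDM (70.7, 81.0 and 126) also lay above every WT library, without a call. IL4R differed from WT by between -0.22 and 0.02 on the log2 scale in these 6 comparisons, and was not called.

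**Figure D2:**
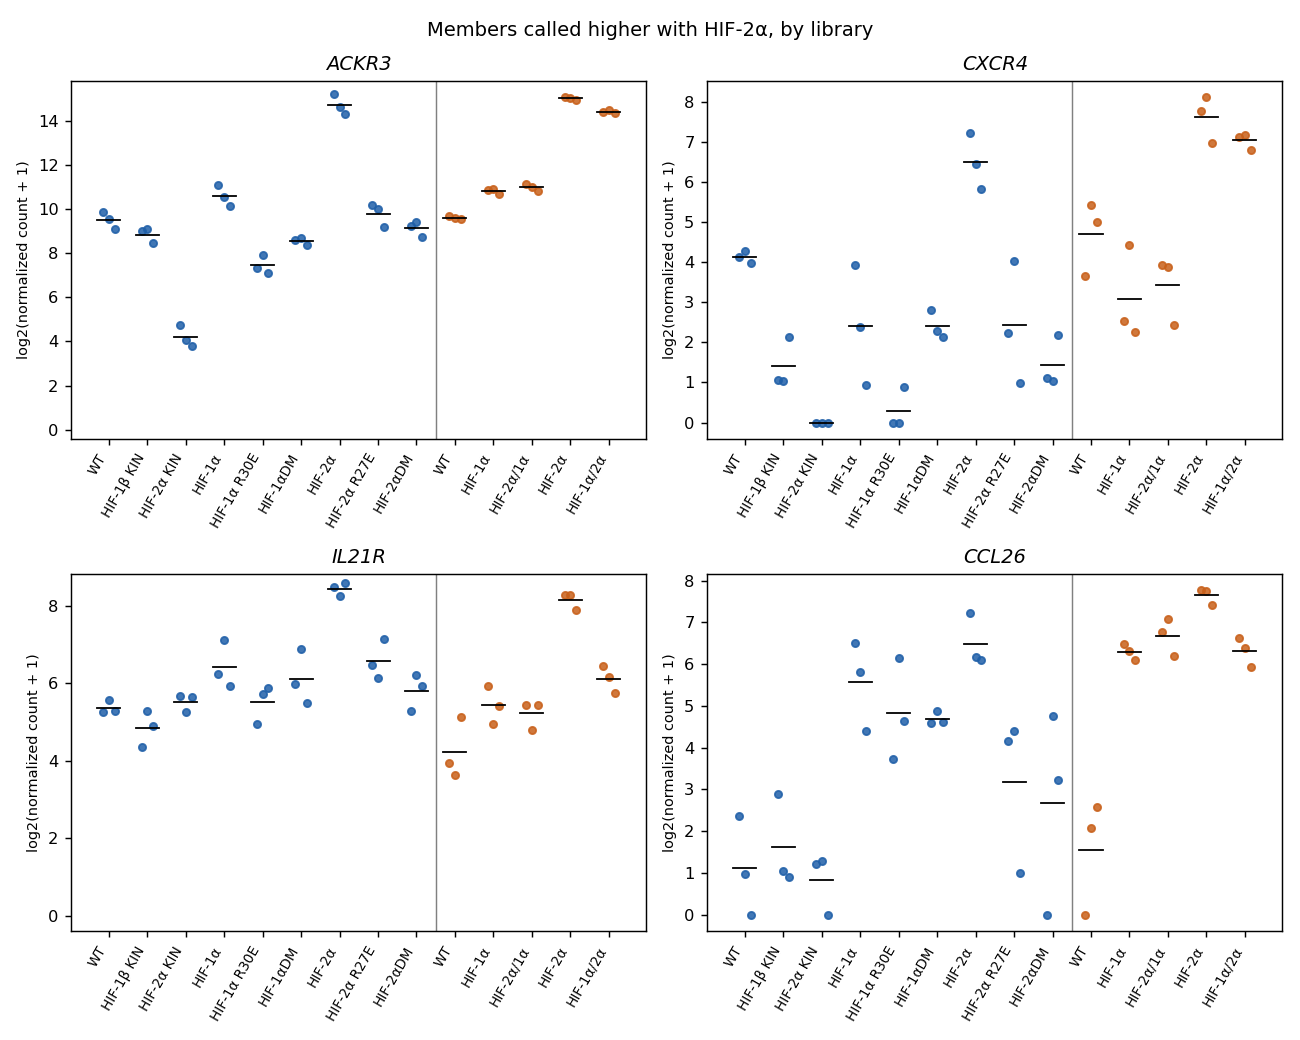
Normalized counts of ACKR3, CXCR4, IL21R and CCL26 as log2(normalized count + 1) in each library (points) with the group mean (bar), batch 1 in blue and batch 2 in orange. For ACKR3, CXCR4 and IL21R the HIF-2α libraries lie above every other group of batch 1, and for ACKR3 and CXCR4 those of HIF-2α and HIF-1α/2α lie above the other 3 groups in batch 2.

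Among the CC chemokines, CCL26, an eosinophil attractant (chromosome 7, 75769533 to 75789896), appeared with both HIF-α proteins. In batch 2 its normalized counts were 0, 3.23 and 5.01 in WT, 88.7, 78.4 and 67.3 with HIF-1α, 108, 134 and 72.1 with the chimera HIF-2α/1α, 218, 215 and 170 with HIF-2α and 97.8, 83.3 and 59.7 with HIF-1α/2α. All 4 lines lay above WT and HIF-2α above the other 3. The log2 differences from WT were 4.77 ± 0.42, 5.19 ± 0.41, 6.13 ± 0.40 and 4.81 ± 0.42 in that order, and HIF-2α exceeded HIF-1α by 1.36 ± 0.26. In batch 1 WT had 4.13, 0.968 and 0, HIF-1α 89.7, 55.5 and 20.0 (4.95 ± 1.10) and HIF-2α 148, 70.9 and 67.0 (5.74 ± 1.11). The HIF-1α call was lost without WT library 2 or 3 or HIF-1α library 1 (4.33 to 4.72, adjusted p = 0.018 to 0.0277).

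CCL26 was not silent in the mutant lines of batch 1. HIF-1αDM had 22.9, 28.3 and 23.5 and HIF-1α R30E 12.1, 70.3 and 23.9, in each case above every WT library, at log2 differences of 3.81 ± 1.09 (adjusted p = 0.126) and 4.32 ± 1.09 (adjusted p = 0.0144). Neither was called, and R30E was with the replicate block (4.35, adjusted p = 0.000981).

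CCL2, the main monocyte attractant (chromosome 17, 34255274 to 34257208), fell with HIF-2α. In batch 1 it had 339, 247 and 180 normalized counts in WT, 77.4, 43.0 and 83.8 with HIF-1α and 15.8, 25.1 and 10.6 with HIF-2α, so that the 3 groups did not overlap. The log2 differences from WT were -1.89 ± 0.43 (adjusted p = 0.00468) and -3.91 ± 0.50 (adjusted p = 2.38e-06). The HIF-1α call was lost without WT library 1 or 2 or any 1 of the HIF-1α libraries (-2.07 to -1.63, adjusted p = 0.0106 to 0.0467). In batch 2 WT had 607, 696 and 570, HIF-1α 286, 335 and 404 and HIF-2α/1α 338, 276 and 363, under 2-fold lower at -0.87 ± 0.16 and -0.94 ± 0.16. HIF-2α, at 80.3, 77.4 and 133, and HIF-1α/2α, at 53.9, 82.1 and 90.0, were lower again and were called at -2.70 ± 0.18 and -3.07 ± 0.19.

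CCL20, which draws dendritic and Th17 cells through CCR6, was lower in all 4 lines of batch 2: 110, 121 and 134 normalized counts in WT, 33.8, 46.5 and 32.2 with HIF-1α, 23.7, 13.8 and 28.8 with the chimera HIF-2α/1α, 27.8, 58.9 and 46.9 with HIF-2α and 53.9, 60.7 and 46.6 with HIF-1α/2α. No library of these lines reached the WT range, and the log2 differences ran from -2.48 ± 0.32 with HIF-2α/1α to -1.18 ± 0.29 with HIF-1α/2α. In batch 1, where WT had 32.2, 20.3 and 29.5, neither HIF-1α (7.56, 4.16 and 5.46) nor HIF-2α (1.58, 16.2 and 6.38) was called, although both lay below WT. The same held for the DNA-binding mutant HIF-1α R30E (5.40, 6.03 and 5.12) and for HIF-1β KIN (15.1, 4.26 and 6.83).

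CCL28 was called higher with HIF-1α in both batches and CCL5 in batch 2. CCL28, an epithelial chemokine and ligand of CCR10, had 331, 278 and 194 normalized counts in WT and 975, 812 and 523 with HIF-1α in batch 1 (1.52 ± 0.36, adjusted p = 0.00583), and 647, 701 and 738 against 1712, 1588 and 1467 in batch 2 (1.19 ± 0.10). The HIF-1α libraries lay above WT in both, while the batch 1 call was lost without any 1 of the WT libraries or HIF-1α library 1 or 2 (1.32 to 1.72, adjusted p = 0.0128 to 0.0478). CCL5, a T-cell attractant, had 17.3, 17.0 and 5.01 in WT of batch 2, 68.5, 80.3 and 71.1 with HIF-1α (2.46 ± 0.41) and 50.9, 62.9 and 39.9 with the chimera HIF-2α/1α (1.95 ± 0.41). In batch 1 its HIF-1α counts, 54.8, 20.8 and 5.46, overlapped WT (14.0, 9.68 and 5.62), while those of HIF-1α R30E, given further on, did not.

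Among the CXC chemokines no CXCR2 ligand was called higher in these 6 comparisons. CXCL5 (chromosome 4, 73995642 to 73998677) was the one called lower in all 6 comparisons. In batch 1 it had 4033, 4624 and 4028 normalized counts in WT, 1169, 1012 and 1773 with HIF-1α (-1.68 ± 0.26) and 618, 827 and 706 with HIF-2α (-2.56 ± 0.27). In batch 2 it had 12392, 13877 and 11128 in WT, 4905, 5230 and 6059 with HIF-1α (-1.21 ± 0.10), 3327, 3331 and 4660 with the chimera HIF-2α/1α (-1.73 ± 0.10), 1735, 1741 and 2482 with HIF-2α (-2.65 ± 0.10) and 4892, 4674 and 5079 with HIF-1α/2α (-1.35 ± 0.10). Among these lines HIF-2α was lowest and WT highest in both batches, with no overlap between WT and any other. In batch 1 CXCL5 also lay below every WT library in HIF-2α R27E (2565, 2078 and 1448), HIF-2αDM (2906, 3013 and 2735) and HIF-1αDM (3853, 1845 and 2574), without a call, and R27E was called with the replicate block (-1.08, adjusted p = 0.00257).

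CXCL2 fell with HIF-1α in batch 1, from 134, 150 and 80.8 to 31.2, 9.72 and 43.7 (-2.07 ± 0.39), and with HIF-2α to 26.9, 32.5 and 43.6 (-1.81 ± 0.39). The HIF-2α call was lost without WT library 1 or 2 or HIF-2α library 1 or 2 (-1.77 to -1.63, adjusted p = 0.0107 to 0.0171). In batch 2 it was called with HIF-2α (-1.32 ± 0.28) and HIF-2α/1α (-1.19 ± 0.28). CXCL1, CXCL3 and CXCL8 were called with none of the 6 in the main edgeR fits, and CXCL1 differed from WT by -0.63 to 0.56. The upper value was that of HIF-1α in batch 2, with 1177, 1136 and 1722 normalized counts above every WT library (1031, 906 and 801), under 2-fold at adjusted p = 0.00452. CXCL8, the classical neutrophil attractant, differed by -1.15 to -0.22.

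CXCL12, the ligand shared by CXCR4 and ACKR3 (chromosome 10, 44370165 to 44386493), rose from a low level with all 6. In batch 2 it had 38.5, 25.9 and 25.1 normalized counts in WT, 113, 154 and 100 with HIF-1α (2.04 ± 0.27), 84.0, 130 and 68.8 with the chimera HIF-2α/1α (1.67 ± 0.28), 75.3, 90.1 and 92.7 with HIF-2α (1.53 ± 0.28) and 75.4, 72.6 and 65.1 with HIF-1α/2α (1.25 ± 0.28). All these libraries lay above WT. In batch 1 WT had 17.3, 20.3 and 26.0, HIF-1α 101, 73.6 and 92.9 (2.06 ± 0.40) and HIF-2α 37.9, 99.0 and 57.4 (1.60 ± 0.40). The DNA-binding mutant HIF-2α R27E, with 91.0, 118 and 133, was called as well, at 2.42 ± 0.40 (adjusted p = 0.00122). HIF-2αDM (35.9, 45.9 and 49.8) and HIF-1αDM (37.8, 79.0 and 57.0) also lay above every WT library but were not called.

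The calls of CXCL12 in batch 1 were less firm than those in batch 2. That with HIF-2α was lost without any 1 of the WT libraries or HIF-2α library 2 or 3 (1.17 to 1.78, adjusted p = 0.0145 to 0.0767), that with HIF-1α without WT library 1 (1.94, adjusted p = 0.0123), and that with HIF-2α R27E without WT library 1 or 2 (2.28 to 2.39, adjusted p = 0.0151 to 0.0202). CXCL16, a membrane-bound chemokine and scavenger receptor, and CX3CL1, the other membrane-bound chemokine, were called with none of the 6.

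Of the interleukins, IL18 and IL7 fell most. IL18, a cytokine of the IL-1 family that drives interferon-γ (chromosome 11, 112143253 to 112164096), had 337, 281 and 148 normalized counts in WT of batch 1, 213, 192 and 135 with HIF-1α and 50.5, 25.1 and 26.6 with HIF-2α (-2.91 ± 0.53, adjusted p = 0.000244). In batch 2 WT had 599, 695 and 704, HIF-1α 493, 493 and 554, HIF-2α/1α 614, 524 and 605, HIF-2α 146, 129 and 156 (-2.21 ± 0.16) and HIF-1α/2α 63.8, 83.3 and 27.1 (-3.52 ± 0.18). In both batches the libraries of lines given the HIF-2α IDR by an intact transgene lay below all others.

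IL7, a growth factor of lymphocytes, had 243, 245 and 169 normalized counts in WT of batch 1, 96.3, 66.6 and 78.3 with HIF-1α (-1.44 ± 0.28) and 39.5, 51.7 and 25.5 with HIF-2α (-2.50 ± 0.30). In batch 2 it had 331, 387 and 278 in WT, 167, 188 and 197 with HIF-1α and 158, 160 and 188 with the chimera HIF-2α/1α, both under 2-fold lower (-0.85 ± 0.17 and -0.98 ± 0.17). With HIF-2α it had 75.3, 85.4 and 98.6 and with HIF-1α/2α 124, 145 and 108, called at -1.94 ± 0.18 and -1.40 ± 0.17. All lines lay below WT, and the HIF-1α call of batch 1 was lost without HIF-1α library 2 (-1.32, adjusted p = 0.0105).

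IL23A, the specific subunit of IL-23, was called lower with HIF-1α and HIF-2α/1α in batch 2, from 47.2, 90.6 and 69.2 in WT to 31.8, 22.3 and 31.3 (-1.28 ± 0.34) and 28.4, 19.0 and 24.4 (-1.54 ± 0.35). The former call was lost without WT library 2 or 3 or HIF-1α library 2 (-1.28 to -1.03, adjusted p = 0.0114 to 0.0605), and the latter without WT library 2 (-1.29, adjusted p = 0.0168). With the replicate block it was called also in batch 1, at -1.70 with HIF-1α and -1.57 with HIF-2α. IL6 was called with none of the 6 in the main edgeR fits. With the block it was called with HIF-1α in batch 1 (-1.32, adjusted p = 0.00254), as was CXCL3 (-1.30, adjusted p = 0.00874). DESeq2 called both there too, IL6 at -1.39 (adjusted p = 0.00738) and CXCL3 at -1.25 (adjusted p = 0.00898). IL11, which signals through gp130 like IL6, was higher with HIF-2α/1α at 0.95 ± 0.10, just under 2-fold.

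**Figure D3:**
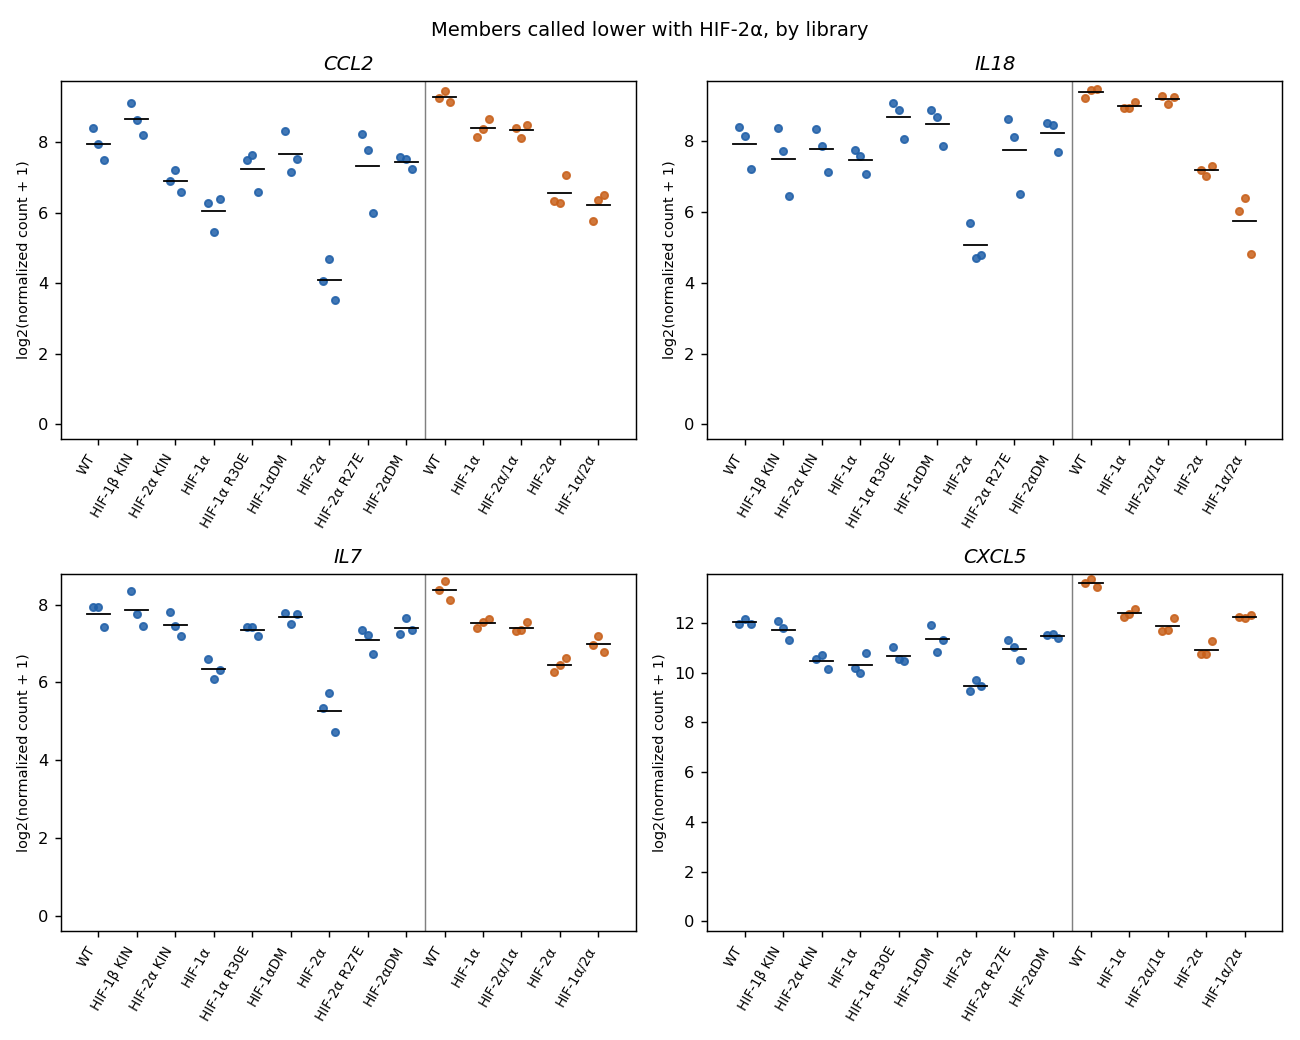
Normalized counts of CCL2, IL18, IL7 and CXCL5 as log2(normalized count + 1) in each library (points) with the group mean (bar), batch 1 in blue and batch 2 in orange. The HIF-2α libraries are the lowest of batch 1 for all 4 genes. In batch 2 IL18 is low in both lines with the HIF-2α IDR and much nearer to WT in both with the HIF-1α IDR.

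HIF-2α was also set directly against HIF-1α. In batch 1 4 of 47 members (8.51%) were called, against 2.4% of all genes (0.935% higher and 1.46% lower): ACKR3 (4.14 ± 0.32), CXCR4 (3.86 ± 0.79) and IL21R (1.94 ± 0.38) higher with HIF-2α and IL18 (-2.41 ± 0.52) lower. Apart from ACKR3 each call was lost without certain single libraries. For CXCR4 these were HIF-1α library 2 or 3 or HIF-2α library 1 (3.32 to 3.65), for IL18 HIF-1α library 1 or 2 or HIF-2α library 2 or 3 (-2.36 to -2.24) and for IL21R HIF-1α library 1 or 3 (1.72 to 1.82), with adjusted p = 0.0139 to 0.0347. With the block the count was 7, with CCL2 (-2.07), CCL28 (-1.44) and IL7 (-1.08) added. In batch 2 9 of 55 (16.4%) were called, against 3.78% (1.64% and 2.14%). ACKR3 (4.18 ± 0.07), CXCR4 (4.40 ± 0.42), IL21R (2.70 ± 0.28) and CCL26 (1.36 ± 0.26) were higher with HIF-2α, and CCL2 (-1.83 ± 0.18), CCL5 (-1.56 ± 0.39), CXCL5 (-1.44 ± 0.10), IL7 (-1.09 ± 0.18) and IL18 (-1.83 ± 0.16) were lower. The CCL5 call was lost without HIF-1α library 2 or HIF-2α library 2 or 3 (-1.49 to -1.37, adjusted p = 0.0101 to 0.0156).

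Whether the responses themselves differed between batches was tested in a joint fit. For neither HIF-1α nor HIF-2α was any of 53 members called, where 0.00374% and 0% of all genes were. Unadjusted edgeR p-values were under 0.05 for 5 and 3 members, and DESeq2 called 0 in both.

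The chimeras separate the IDR from the structured part that holds the DNA-binding and dimerization domains. The IDR effect, the mean of both lines with the HIF-2α IDR minus the mean of both with the HIF-1α IDR on the log2 scale, was called for 7 of 55 members (12.7%), against 4.41% of all genes (1.9% higher and 2.5% lower). Of these 3 were higher with the HIF-2α IDR: CXCR4 (3.99 ± 0.29, adjusted p = 1.85e-15), ACKR3 (3.80 ± 0.05, adjusted p = 2.97e-43) and IL21R (1.82 ± 0.21, adjusted p = 6.15e-10). The 4 lower were IL18 (-2.58 ± 0.12), CCL2 (-1.98 ± 0.13), CCL5 (-1.74 ± 0.28) and CCL11. CCL11 was below the detection limit, with no read in either line with the HIF-2α IDR and at most 9.68 normalized counts in the others, and its call was lost with the replicate block, with DESeq2 and without any 1 of 8 of the 12 libraries, so no fold is given. The median of the detected members was -0.08, beside 0.02 for all genes.

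The structured-part effect, HIF-2α part minus HIF-1α part as a mean over both IDRs, was called for no member, where 1.04% of all genes were called. Unadjusted edgeR p-values were under 0.05 for 24 of 55 members, and DESeq2 called 0. An adjusted p of at most 0.01 was reached by 11 members, each under 2-fold, where 11.4% of all genes reached it. They were led by CXCL5 (-0.91 ± 0.07, lower with the HIF-2α part), IL21R (0.88 ± 0.21), CCL26 (0.87 ± 0.18), IL18 (0.74), IL6R (-0.59), CXCL1 (-0.55), CXCL8 (-0.41) and ACKR3 (0.38). For ACKR3 the IDR effect was thus 3.80 and the structured-part effect 0.38, while for CXCL5 the structured-part effect, although under 2-fold, was clear of the spread between libraries. A mean over both IDRs can hide a larger difference with 1 of them. With the HIF-2α IDR, IL21R averaged 285 normalized counts on the HIF-2α part and 70.1 on the HIF-1α part, and CXCL5 1986 and 4882. Lines that share an IDR were not tested directly against each other.

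**Figure D4:**
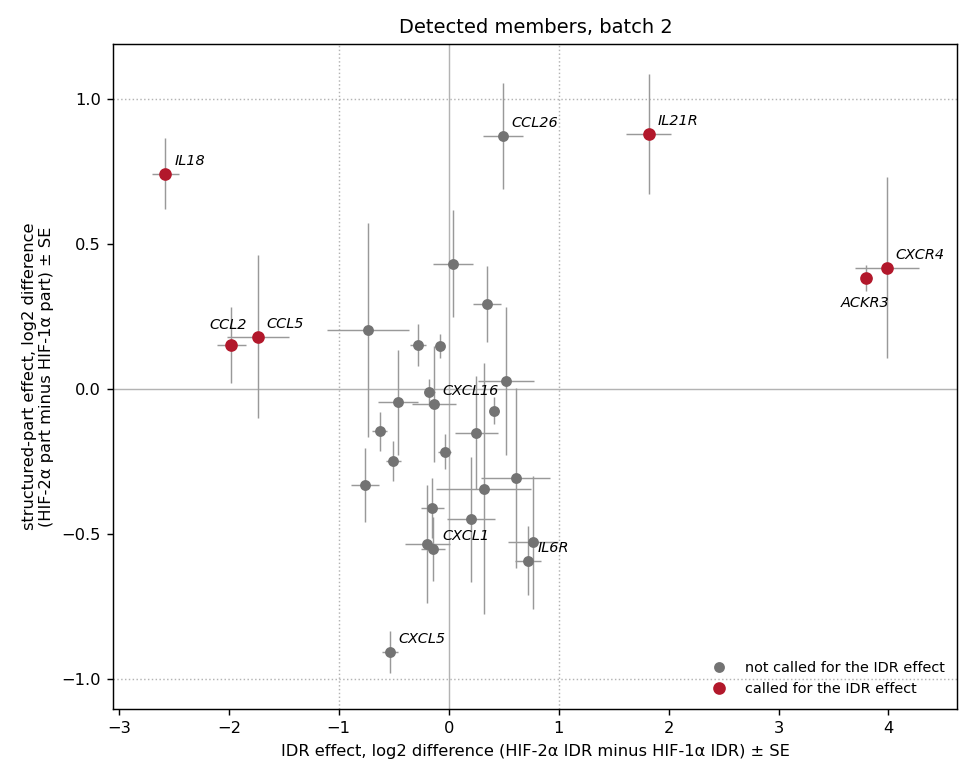
Scatter of the IDR effect (x axis, log2 difference, HIF-2α IDR minus HIF-1α IDR) against the structured-part effect (y axis, HIF-2α part minus HIF-1α part) for the detected members of batch 2, with SEs as bars, members called for the IDR effect in red and dotted lines at 2-fold. The called members spread along the x axis from IL18 at -2.58 to CXCR4 at 3.99, and no member passes the dotted lines on the y axis.

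For 3 members the IDR effect depended on the structured part it was joined to, all 3 above 0, or 5.45% of the members, where 1.18% of all genes were called (0.867% above 0 and 0.31% below). The test is the difference between the IDR effect on the HIF-2α part (HIF-2α minus HIF-2α/1α) and that on the HIF-1α part (HIF-1α/2α minus HIF-1α). For IL21R it was 2.27 ± 0.41: the counts went from 42.6, 26.7 and 42.2 to 310, 308 and 237 on the HIF-2α part, but from 59.8, 30.0 and 41.7 to 87.0, 70.2 and 53.2 on the HIF-1α part. For CXCL16 it was 2.11 ± 0.40, with 46.1, 38.8 and 59.9 to 65.4, 112 and 96.2 on the HIF-2α part and 89.7, 117 and 104 to 48.9, 26.2 and 59.7 on the HIF-1α part, so that the IDRs ranked in opposite order. For IL18 it was 1.13 ± 0.25, the fall being smaller on the HIF-2α part. Without HIF-1α/2α library 3 the IL18 value was 0.81, under 2-fold (adjusted p = 0.00759).

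The mutants carry changes in the DNA-binding domain (R27E and R30E) or in the dimerization surface (DM), and how much binding each had left was not tested here. Against HIF-2α R27E, HIF-2α raised or lowered 7 of 47 members (14.9%, against 3.63% of all genes, 2.09% higher and 1.53% lower), and against HIF-2αDM also 7 (14.9%, against 3.96%, or 2.48% and 1.48%). ACKR3, CXCR4 and IL21R were called higher and CCL2, IL18, IL7 and CXCL5 lower in each. With the replicate block CCL26 was also called higher, by 3.11 (adjusted p = 0.00205) and 3.07 (adjusted p = 0.0023). ACKR3 in HIF-2α R27E had 1154, 1025 and 581 normalized counts and in HIF-2αDM 604, 669 and 422, both overlapping WT, and the differences of HIF-2α from them were 4.92 ± 0.33 and 5.62 ± 0.35. IL18 in HIF-2α R27E had 391, 274 and 89.3 and differed from HIF-2α by -2.90 ± 0.53. Against HIF-2α R27E, CXCR4 lost its call without HIF-2α library 1 or R27E library 1 (3.37 to 3.55) and IL21R without R27E library 1 or 2 (1.65 to 1.77), with adjusted p = 0.0134 to 0.0185. EPAS1 had means of 56676 in HIF-2α R27E and 48666 in HIF-2αDM, no lower than the 44695 of the HIF-2α line.

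Against HIF-1α R30E, HIF-1α had 3 of 47 members called (6.38%, against 1.75% of all genes, 1.42% higher and 0.329% lower), ACKR3 (3.14 ± 0.31), CCL28 (1.67 ± 0.36) and CXCL12 (1.82 ± 0.40), all higher. Against HIF-1αDM it also had 3 (6.38%, against 1.37%, or 1.21% and 0.158%), ACKR3 (2.08 ± 0.30) and CCL28 (1.67 ± 0.36) higher and IL7 (-1.34 ± 0.28) lower. With the block these counts were 5 and 7. The ACKR3 differences are not gains of HIF-1α alone, because both mutant lines lay below every WT library. Its means were 179 for R30E, 373 for HIF-1αDM, 733 for WT and 1580 for HIF-1α. Set against WT, the log2 difference of ACKR3 was 1.11 for HIF-1α, not called in the main edgeR fit, and -2.04 for R30E. Apart from ACKR3 each call was lost without certain single libraries. Against HIF-1α R30E, CXCL12 lost its call without any 1 of the 6 libraries (adjusted p = 0.0127 to 0.0594) and CCL28 without HIF-1α library 1 or 2 or R30E library 1 or 3 (0.0227 to 0.0526). Against HIF-1αDM, CCL28 lost it without HIF-1α library 1 or 2 or any 1 DM library (0.016 to 0.0506) and IL7 without HIF-1α library 2 or 3 or DM library 1 or 3 (0.0217 to 0.0444).

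HIF-1α R30E had the most called members of the 4 mutant lines. Against WT it was called for CXCR4, ACKR3 and CXCL5 (lower) and IL6R, CXCL16 and CCR10 (higher). With the replicate block CCL26 and CCL5 were also called higher, CCL5 with 43.2, 129 and 35.8 against 14.0, 9.68 and 5.62 (2.85, adjusted p = 0.000533). CXCR4 had no read in 2 R30E libraries and 0.854 normalized counts, a single read, in the other (adjusted p = 0.00352), and no fold is given so close to the floor. CXCL5 had 2103, 1505 and 1416 (-1.34 ± 0.26). IL6R rose from 147, 116 and 207 to 383, 496 and 502 (1.55 ± 0.21), CXCL16 from 99.1, 55.1 and 78.7 to 208, 188 and 288 (1.55 ± 0.29) and CCR10 from 40.5, 57.1 and 68.2 to 170, 97.4 and 195 (1.48 ± 0.31). None of these groups overlapped WT. ACKR3 and IL6R kept their calls without any single library, while the others lost them without 1 or more: CXCR4 without WT library 2 or any 1 R30E library (adjusted p = 0.011 to 0.0221), CXCL16 without WT library 2 or R30E library 3 (0.0106 to 0.0128), CCR10 without WT library 1 or 2 or R30E library 1 or 3 (0.0116 to 0.0267) and CXCL5 without R30E library 3 (0.0126). EPAS1 averaged 10322 in this line and 14498 in WT cells. Its mean was below that of WT also in HIF-1β KIN (10383), HIF-1αDM (11464) and HIF-2α KIN (6177). The part of EPAS1 in the result was not tested.

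In the HIF-2α KIN clone chemokines of several families were lower than in WT cells. Of the 30 detected members 26 had a negative log2 difference, and their median was -0.90, beside -0.04 over all genes tested, and the same with the 3 members at the floor set to their bound. CXCL8 (chromosome 4, 73740519 to 73743716) fell from 1580, 1445 and 1473 normalized counts to 23.5, 50.0 and 69.3 (-4.94 ± 0.59, adjusted p = 1.12e-06). CXCL1 (chromosome 4, 73869393 to 73871308) fell from 934, 986 and 704 to 191, 143 and 243 (-2.18 ± 0.23), and CXCL5 to 1486, 1700 and 1133 (-1.55 ± 0.26). All KIN libraries lay below all WT libraries for these 3 ligands of CXCR2, whereas CXCL2, at 116, 87.1 and 54.9 against 134, 150 and 80.8, overlapped WT.

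A further 3 detected members had no read at all in the HIF-2α KIN libraries. CCL20 (chromosome 2, 227805739 to 227817564) had 32.2, 20.3 and 29.5 normalized counts in WT and was at least 7.64-fold lower, CXCL12 was at least 5.93-fold and CXCR4 at least 4.62-fold lower, against a floor of 3 reads per library. ACKR3 fell to 26.2, 15.7 and 12.7 (-5.36 ± 0.39), so that the ligand CXCL12 and both its receptors were low together. CCL28 (48.4, 84.2 and 33.8, -2.29 ± 0.38), IL6 (135, 124 and 51.5, -2.18 ± 0.42), CXCL16 (22.2, 15.7 and 22.0, -1.94 ± 0.32) and IL7R (110, 246 and 191, -1.44 ± 0.28) were also called lower and did not overlap WT. The IL7R call was lost without KIN library 1 (-1.18, adjusted p = 0.0105).

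CCR10 was the one member called higher in the HIF-2α KIN clone, from 40.5, 57.1 and 68.2 to 366, 267 and 442 (2.69 ± 0.31, adjusted p = 8.48e-07), opposite in direction to its ligand CCL28. IL34, a ligand of the CSF1 receptor, was not called in the main edgeR fit. It was called lower with the block (-2.26, adjusted p = 0.00029) and with DESeq2 (-2.20, adjusted p = 0.00273). Beside these values, EPAS1 RNA was itself lower in the clone (6177 against 14498, log2 -1.23 ± 0.20). By western blot the study found the clone's tagged HIF-2α protein at a level similar to that in WT cells. Of the 2 fibroblast markers that passed the filter PDGFRB was called higher (1075 against 150) and LUM was not called (46.4 against 72.3). The part of EPAS1 and of these markers in the result was not tested. The group is 1 clone, so that effects of the tag and of the clone cannot be told apart.

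HIF-1β KIN, also 1 clone, differed less. CXCL1 fell to 454, 402 and 367 (-1.10 ± 0.22, adjusted p = 0.00358), below every WT library, and the call was lost in 5 of 6 fits that left out 1 library (-1.19 to -1.01, adjusted p = 0.0105 to 0.0277) and in a fit of these groups alone (-1.07, adjusted p = 0.012). With the block CXCL12 (-2.02, adjusted p = 0.00285) and CXCL16 (-1.12, adjusted p = 0.00992) were called lower and CCR10 higher (1.30, adjusted p = 0.000361). Some members called lower in the HIF-2α KIN clone also lay below every WT library here, without a call. They were CXCL8 (1314, 516 and 444), CCL20 (15.1, 4.26 and 6.83), CCL28 (151, 193 and 77.7) and ACKR3 (508, 539 and 346). The median of the detected members was -0.50, beside -0.03 over all genes.

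**Figure D5:**
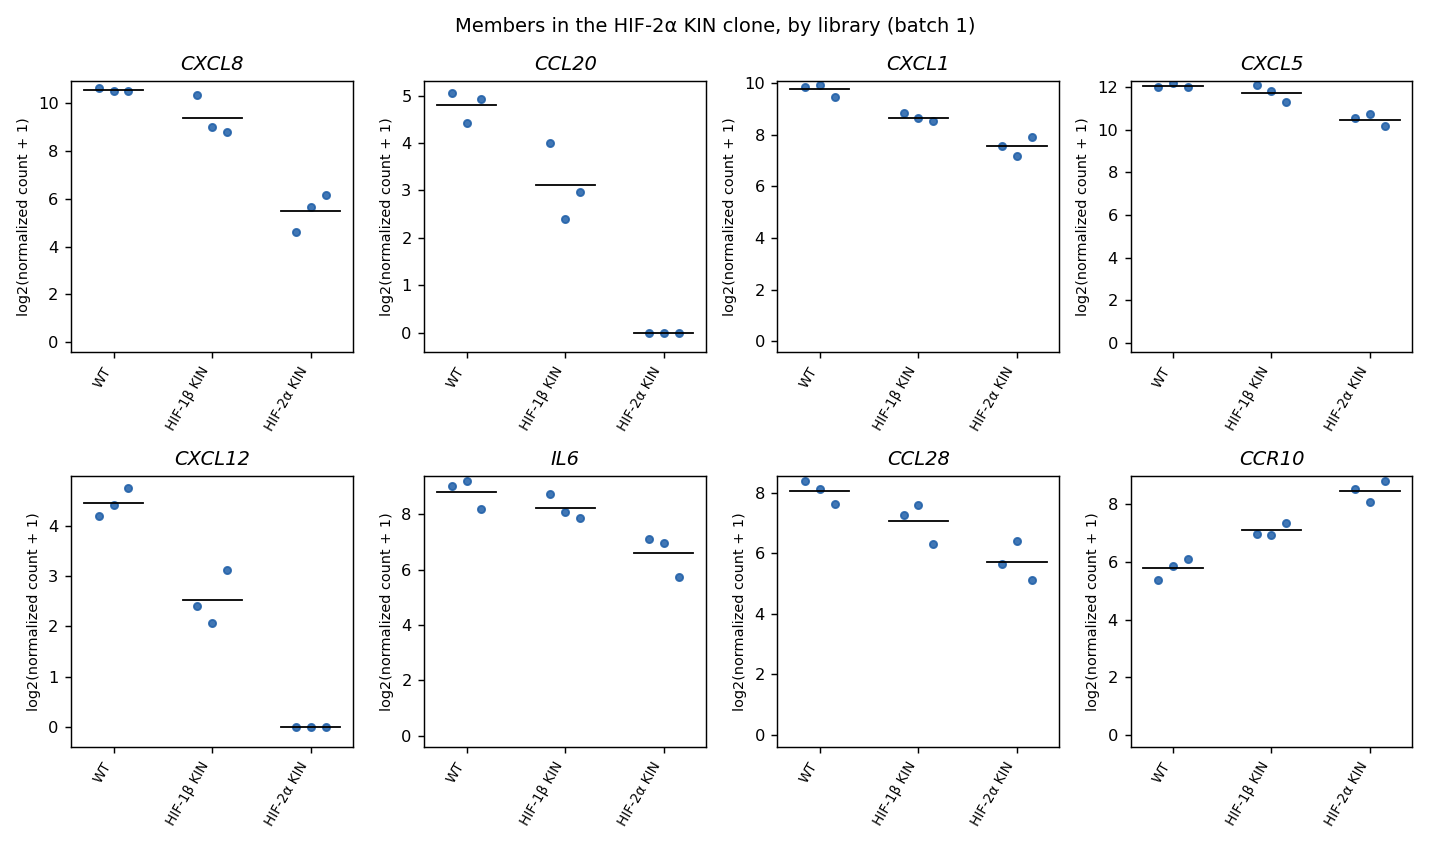
Normalized counts of 8 members as log2(normalized count + 1) in each library (points) of both KIN clones and WT cells in batch 1, with group means (bars). In HIF-2α KIN, CCL20 and CXCL12 are at 0 and CXCL8 is far below WT, while CCR10 is above WT in all 3 libraries.

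Genes that share pathways with the members were taken from lists, which were chosen with earlier results of these data known. Of 35 tested genes of the NF-κB pathway, 9 were called lower and none higher in HIF-2α KIN, where 1.79% of all genes were called lower and 2.35% higher, with a list median of -0.50 beside -0.04 over all genes. The lower genes included TNF, an upstream cytokine, at -4.08 ± 0.39 (21.6 against 369 normalized counts), LTB, a TNF-family ligand, at -2.69 ± 0.59, the adaptor TRAF1 at -2.20 ± 0.28 and the adhesion molecule ICAM1 at -2.02 ± 0.22. In the 6 comparisons of the functional lines, 1 to 4 of the 35 or 36 genes tested were called lower, beside 0.484% to 2.68% of all genes, TNF each time (-2.88 with HIF-1α and -2.30 with HIF-2α in batch 1), and LTB was called higher with HIF-1α/2α (2.47 ± 0.31).

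Of 28 and 29 tested interleukin receptor subunits and antagonists outside the naming rule, HIF-2α had 3 called higher and 3 lower in batch 1, where 3.78% and 1.94% of all genes were, and 4 each way in batch 2 (5.45% and 2.13%). IL27RA, the receptor of IL-27, was higher in all 6 comparisons, for instance by 3.03 ± 0.42 and 3.22 ± 0.29 with HIF-2α. IL11RA, the receptor of IL-11, was higher by 1.77 ± 0.36 and 2.41 ± 0.29 with HIF-2α, and IL1R1, the signalling receptor of IL-1, lower by -2.03 ± 0.40 and -2.14 ± 0.10. IL15RA fell by 2.02 and 2.08 on the log2 scale with HIF-2α. IL18R1, the receptor of IL-18, fell by 1.53 and 1.83 on the log2 scale with HIF-2α. It also fell with HIF-1α, by 1.40 and 1.43, and with HIF-2α/1α, by 1.16, comparisons in which IL18 itself was not called (-0.51, -0.38 and -0.20).

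Among 23 genes for JAK kinases, STAT factors and SOCS inhibitors, which carry interleukin signals, STAT5A was called lower in all comparisons of HIF-1α and HIF-2α with WT (-1.60 and -2.17 in batch 1, -1.14 and -1.92 in batch 2) and by -3.72 ± 0.29 in HIF-2α KIN. There SOCS3, a feedback inhibitor, was higher by 1.39 ± 0.20. Of 11 and 10 colony-stimulating and related cytokines, CSF2, which encodes GM-CSF, fell in HIF-2α KIN (591 to 23.3 normalized counts, -4.68 ± 0.47), and CSF1 fell with HIF-2α by 1.26 and 1.43 on the log2 scale. Beside these, the summed fibroblast markers ranged from 95.7 to 1122 normalized counts over groups of batch 1 and from 28.5 to 313 in batch 2. Of them LUM was lower with HIF-2α (2.76 against 72.3, and 19.0 against 222). The summed endothelial markers were at most 7.98 and 33.6, and the part of these markers in the results was not tested.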

How the data were processed

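Gene counts of 42 poly-A RNA-seq libraries were analysed, 27 in batch 1 (9 groups) and 15 in batch 2 (5 groups), each assigned by its label. The authors deposited raw counts per gene and library. They had aligned reads to hg38 with STAR, kept reads with a single position and counted them on GENCODE release 32 with HTSeq (version 0.11.1 in the submitters' processing notes) in union mode without strand. Paralogous genes can therefore lose reads. By gene positions of GENCODE release 44, 14 of the 31 detected members overlap a gene on the opposite strand. Among them are CCL5, CCR10, CXCL5, CXCL16, IL6, IL6R, IL7, IL18, IL21R and IL32. Union mode leaves reads that touch exons of several genes uncounted, and strand was not used to assign the rest. How many reads this touched was not tested. RNA extraction and library kits differed between batches, so groups were compared within a batch, except in a joint fit that compared the HIF-1α and HIF-2α responses of both.

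The main tests used edgeR 4.0.16 in R 4.3.3, with limma 3.58.1 and, as an alternative, DESeq2 1.42.0. Genes whose TMM-normalized count averaged 0.5 or more entered the tests, 23410 in batch 1 and 28724 in batch 2, with normalization factors of 0.822 to 1.16 and 0.963 to 1.03. All groups of a batch shared 1 quasi-likelihood fit without a block, and p-values were adjusted over all genes tested. Calls needed an adjusted p no higher than 0.01 together with a 2-fold or larger change. A fold against a group with no reads was set against 3 counts per library and given as a lower bound. Depth was 42377599 to 101186554 and 76366799 to 109642159 reads. RPKM used merged exons of GENCODE release 44, which matched 104 of the 105 members and gave the gene positions. Scripts were tested on simulated data.

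Replicate numbers are shared between groups in the labels. Same-numbered libraries deviated together from their group means, with all 3 correlations above 0.1, in 11 of 13 batch 1 comparisons and in 1 of 5 of batch 2.

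Members were named by the rule of symbols. Detected members could be named, and values of every library were given for those called in a comparison with WT cells or for the IDR and reaching a group mean of 50 normalized counts. The members and lists were chosen with earlier results of these data known. Alternatives were DESeq2, RLE size factors, no filter on low counts, only the groups compared, a replicate block, libraries numbered 1 and 2 only, detection limits of 5 and 20, and leaving out each library.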

Additional observations from a re-analysis of the deposited data

Results flagged for a closer look

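In batch 2 3 members had an IDR effect that differed between the HIF-2α and the HIF-1α structured part by a test of the difference itself, the interaction term of edgeR's fit. For IL21R the difference was 2.27 (SE 0.41, adjusted p = 0.000111), and the mean with the HIF-2α IDR was higher on both parts. For CXCL16 it was 2.11 (SE 0.40, adjusted p = 0.000218), and the IDRs ranked in opposite order on the 2 parts. For IL18 it was 1.13 (SE 0.25, adjusted p = 0.00122), and the HIF-2α IDR was lower on both parts. All 3 values were above 0 in each of the 12 fits that left out 1 library.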

How the results depend on the processing

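Of the 121 called values of members, all 121 kept their call with RLE size factors, 119 with DESeq2, 120 without the filter on low counts and 120 with the replicate block, 107 of 118 in fits of only the groups compared and 54 of 60 with libraries numbered 1 and 2 only. When 1 library was left out, 687 of 786 values kept their call and 99 did not. No value changed direction. Counts of called members moved most in batch 1. HIF-1β KIN went from 1 to 4 with DESeq2, 4 with the block and 0 in a fit of only the groups compared. HIF-1α against WT went from 7 to 11 with DESeq2, 11 with the block and 11 with libraries numbered 1 and 2 only. HIF-1αDM went from 0 to 1 without the filter. HIF-2α R27E went from 1 to 2 with DESeq2, 3 without the filter, 2 with the block, and 0 both in a fit of only the groups compared and with libraries numbered 1 and 2 only. HIF-2α against HIF-1α went from 4 to 7 with DESeq2, without the filter and with the block. HIF-1α against R30E went from 3 to 5 with DESeq2 and with the block, and against HIF-1αDM from 3 to 6 with DESeq2, 8 without the filter, 7 with the block and 5 with libraries numbered 1 and 2 only. The batch difference of HIF-1α went from 0 to 1 without the filter. The cause was not tested. The block ended the CCL11 call of the IDR effect (-4.52, adjusted p = 0.0101), and no other called value was lost with it.

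With 1 library left out, the counts ranged as follows in batch 1. HIF-1β KIN had 0 to 1, HIF-2α KIN 11 to 13, HIF-1α 4 to 8, R30E 2 to 7, HIF-2α 7 to 8 and R27E 0 to 1. HIF-2α against HIF-1α had 2 to 3, HIF-1α against R30E 1 to 2 and against HIF-1αDM 1 to 4, and HIF-2α against R27E 6 to 8 and against HIF-2αDM 7 to 8. In batch 2 HIF-1α had 7 to 9, HIF-2α/1α 7 to 11, HIF-2α and HIF-1α/2α 12 to 13, HIF-2α against HIF-1α 8 to 9, the IDR effect 6 to 7, the structured-part effect 0 to 1 and the interaction 2 to 3. Detection limits of 5 or 20 mean reads kept the number of detected members within 1.5 times. Depth limits what can be said of the 17 and 24 members tested but not detected.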
